A study of Bos taurus with 90 samples.

Results

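The miR-23, miR-27 and miR-24 clusters of cattle were followed here through 6 mature miRNAs, miR-23a, miR-27a-3p, miR-27a-5p, miR-23b-3p, miR-27b and miR-24-3p. They were taken by name from the lists of quantified miRNAs, and they are 6 of the 388 miRNAs listed in at least 1 tissue. All 6 were listed in each of the 90 libraries. The libraries came from Chinese Holstein cows in mid-lactation, 18 in all, with 6 on each of 3 diets based on rice straw, alfalfa hay or corn stover. Liver, mammary gland and, per the labels, the epithelium of rumen, duodenum and jejunum were sampled at slaughter, which gave 15 groups of 6 libraries. No group was an untreated control, and age was not given in the sources used here. The values are CPM, the reads of a miRNA divided by all reads mapped to annotated miRNAs in the same library and scaled alike in every library.

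A miRNA cluster is a stretch of the genome where several precursors are cut from 1 primary transcript. Each precursor folds into a hairpin with 2 arms, 5p and 3p, and usually 1 arm is loaded into the silencing complex while the other is degraded. The a cluster makes miR-23a, miR-27a and miR-24, and its paralogue, the b cluster, makes miR-23b, miR-27b and miR-24. The mature miR-24-3p of both clusters is the same molecule, so its reads cannot be assigned to either cluster. The miR-27 pair is known as a repressor of fat cell differentiation and lipid synthesis, in ruminant mammary epithelial cells as elsewhere. The miR-23 pair and miR-24 are known from blood vessel endothelium, muscle and control of cell growth. In the RefSeq annotation of the bovine assembly ARS-UCD2.0, MIR23A, MIR27A and MIR24-2 lie next to each other within the span of LOC132345691, and MIR23B, MIR27B and MIR24-1 lie next to each other within the gene AOPEP.

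The libraries held between 937556 and 15621501 mapped miRNA reads, with a median of 5778304.5. Of the 90 libraries, 3 held fewer than 2000000 reads, and all 3 were from mammary gland, rice straw samples 1 and 5 and alfalfa hay sample 1. Tissue labels were checked against marker miRNAs. The hepatocyte miRNA miR-122 had a median of 11038 CPM in liver and at most 48.5 CPM in mammary gland, and it was not listed in the other 3 tissues. The stratified epithelium markers (2 of 3 listed in rumen) summed to a median of 37585 CPM in rumen and to at most 9101 CPM in any library of another tissue. Small intestine epithelium markers (3 of 3 listed) summed to at least 144396 CPM in jejunum, but also to at least 122056 CPM in liver. p-values measure the spread between these samples. The samples hold many cell types, and fewer cells of a type and less RNA per cell cannot be told apart. Reads of near-identical members, miR-27a-3p with miR-27b and miR-23a with miR-23b-3p, could have been shared between them because the alignment allowed 2 mismatches and up to 10 mappings, so each of these values is uncertain to that extent.

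All 6 miRNAs were highest in the rumen. miR-27b was the most abundant, at 102479 CPM at the median of the rumen, which gave it rank 2 of 340 miRNAs by mean CPM there and rank 7 in each of the other 4 tissues. The 6 together took a median of 127783 CPM of the rumen libraries (range 102273 to 166742), against medians between 40336 and 40831.5 CPM in the other 4 tissues. Ranges of each member are given below, and the share of all miRNAs whose ranges do not overlap between tissues was not counted. The order below the rumen differed between members. By the median, liver was lowest for 5 of the 6, whereas miR-27b was not lower in liver than in the small intestine or the mammary gland.

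In the a cluster, miR-23a ranged from 2080.1 to 4961 CPM in the rumen, with a median of 2931. Its medians were 983 in duodenum (776 to 1372), 1193 in mammary gland (389 to 1715), 1050 in jejunum (722 to 1496) and 414 CPM in liver (340.2 to 718). Every rumen library was above every library of the other 4 tissues, and liver overlapped neither duodenum nor jejunum.

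The main arm of the neighbouring precursor, miR-27a-3p, had a median of 10784 CPM in the rumen (7870.1 to 16588). It reached medians of 2538 in duodenum (2094 to 3355), 3135 in mammary gland (721 to 4709), 2851 in jejunum (2338 to 3465) and 1513 CPM in liver (1409 to 2329). As for miR-23a, the rumen range stood clear of all others, and the mammary libraries were the most spread in fold terms.

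The opposite arm, miR-27a-5p, was rare. Its median was 22.2 CPM in the rumen (14.7 to 36.5), 2.69 in duodenum (1.18 to 3.84), 6.05 in mammary gland (1.60 to 17.3), 2.35 in jejunum (0.980 to 6.81) and 1.67 CPM in liver (0.520 to 5.30). These levels rest on few reads, a median of 94 per library in rumen, 19 in duodenum, 42 in mammary gland, 20 in jejunum and 6 in liver. The rumen overlapped only with the mammary gland, whose median was above those of the small intestine and liver.

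In the b cluster, miR-23b-3p had a median of 5224 CPM in the rumen (2844 to 7302). The medians were 2348 in duodenum (1626 to 2946), 1609 in mammary gland (338 to 3587), 2092 in jejunum (1235 to 3219) and 916 CPM in liver (626 to 1627). Only liver did not overlap the rumen.

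Its neighbour miR-27b had a median of 102479 CPM in the rumen (81998 to 137532). Outside the rumen its medians were close to each other, at 32605 in duodenum (25501 to 35011), 31998 in mammary gland (15441 to 41251), 33510 in jejunum (27878 to 42199.8) and 36969 CPM in liver (28232 to 42032). No library of another tissue reached the lowest rumen library.

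The shared product miR-24-3p had a median of 3037 CPM in the rumen (1796 to 6541). Its medians were 1709.6 in duodenum (834 to 2204), 1162 in mammary gland (491 to 6033), 1497 in jejunum (704 to 2279) and 552 CPM in liver (362 to 1297). The highest mammary value, 6033 CPM in rice straw sample 3, stood well above the others of its diet, which ended at 1467 CPM.

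**Figure D1:**
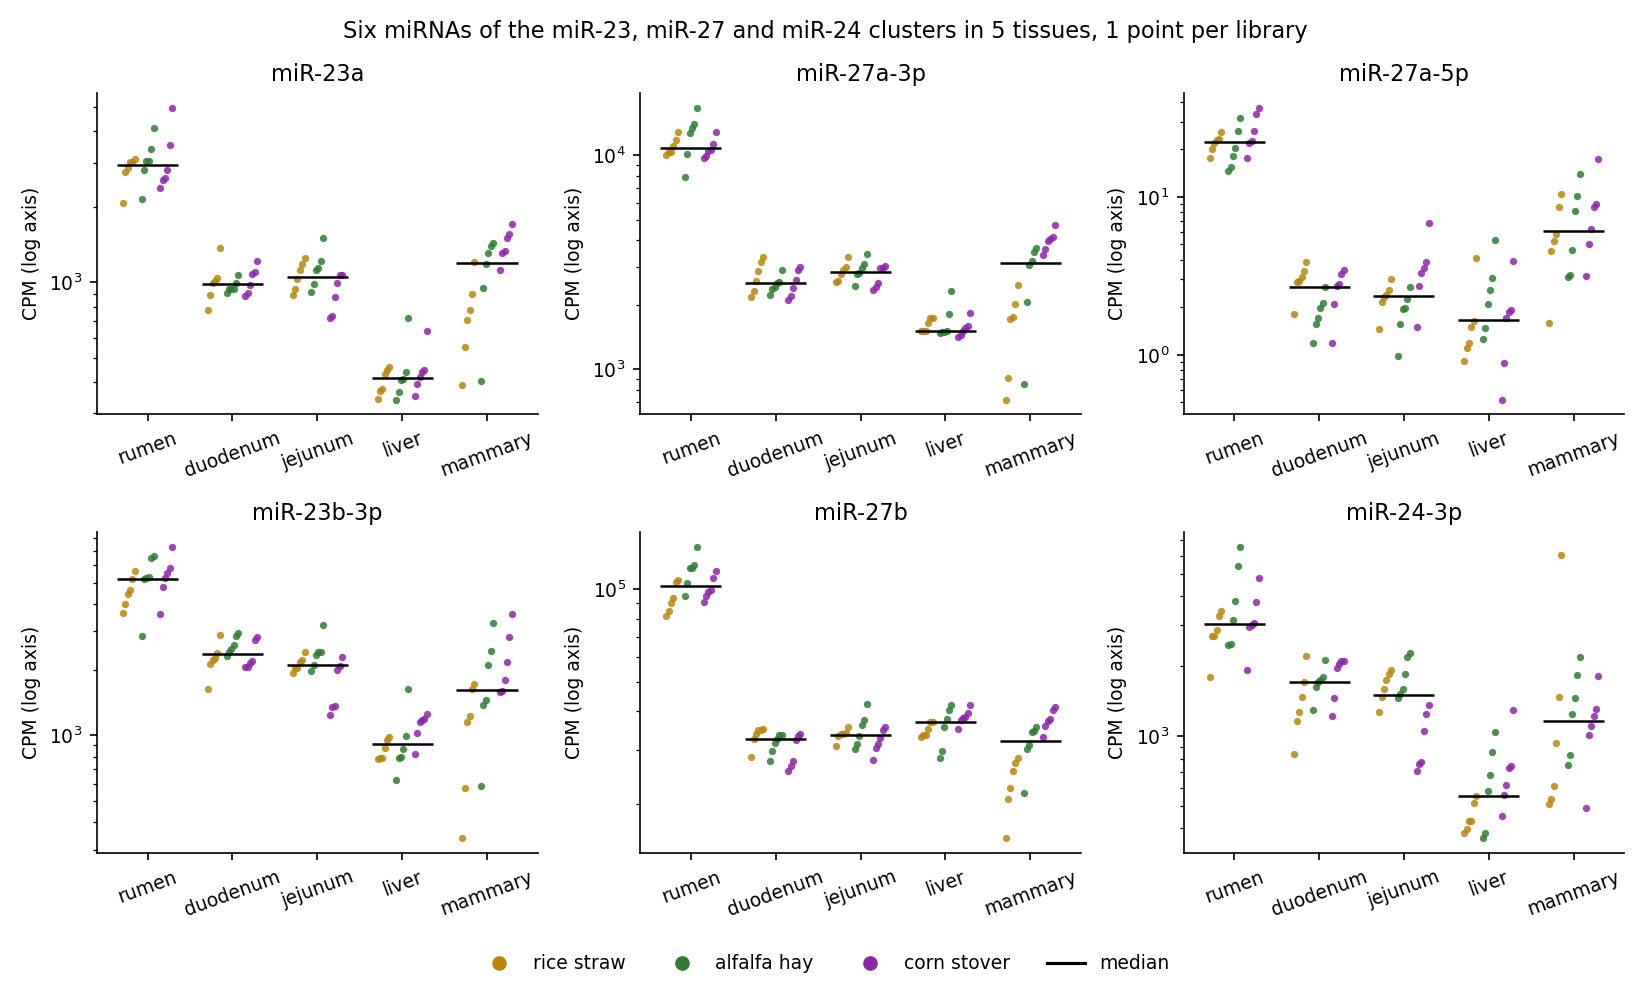
CPM of the 6 miRNAs (log axis) in 5 tissues, 1 point per library coloured by diet, with a bar at the median of the 18 libraries; points of a diet are spread sideways in order of value. The rumen medians, 22.2 CPM for miR-27a-5p to 102479 CPM for miR-27b, are the highest in every panel, and liver is lowest except for miR-27b.

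Differences between tissues were tested with limma on log2(CPM + 1) across the 289 miRNAs listed in all 5 tissues. Many miRNAs differ between these tissues, and the counts below must be read against that background. Rumen was higher for 6 of 6 members than duodenum, jejunum, liver and mammary gland. Of all miRNAs tested, 72.7, 75.8, 84.4 and 84.8 percent passed the threshold in these comparisons in the same order, and 45, 45, 55 and 50.9 percent passed it with the higher value in rumen. Over all miRNAs the median log2 difference was 0.19, 0.19, 0.47 and 0.34, and each member's difference was above it. Under TMM scaling (a trimmed mean of ratios) or upper-quartile scaling that median lay between -0.21 and 0.09, and the 6 members were still called higher in rumen in all 4 comparisons. The percentages above belong to the fit without scaling, and the share of all miRNAs called under either scaling is not given here.

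Against duodenum the rumen value of miR-27a-3p was higher by 2.13 ± 0.11 (log2, SE, adjusted p = 1.53e-30) and that of miR-27b by 1.71 ± 0.06 (adjusted p = 1.81e-41). The miR-23 forms differed less, miR-23a by 1.57 ± 0.11 (adjusted p = 5.84e-22) and miR-23b-3p by 1.07 ± 0.14 (adjusted p = 3.31e-10). The difference was smallest for miR-24-3p, at 0.98 ± 0.18 (adjusted p = 1.56e-06), and largest for the rare arm miR-27a-5p, at 2.79 ± 0.16 (adjusted p = 2.00e-27). The jejunum gave like values, from 1.18 for miR-24-3p to 2.77 for miR-27a-5p. Because 1 CPM was added before the log, the differences of miR-27a-5p are understated, and with 0.1 CPM added its rumen and liver values differed by 3.60 in place of 3.04. Ranked by the F statistic over the 5 tissues, miR-27b stood 19th of 289 miRNAs, miR-27a-3p 33rd, miR-23a 39th, miR-27a-5p 54th, miR-23b-3p 83rd and miR-24-3p 131st.

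Between duodenum and jejunum no member passed the threshold by limma, against 11.4 percent of all miRNAs. None of the 6 and 69 of 289 miRNAs had an unadjusted p under 0.05, and the log2 differences lay between -0.13 ± 0.11 for miR-27a-3p and 0.22 ± 0.14 for miR-23b-3p. Fitted on these tissues alone, miR-23b-3p passed the threshold, with the same difference and an adjusted p of 0.0395. Without the 3 mammary libraries under 2000000 reads the miRNAs called between duodenum and jejunum rose from 33 to 63 of 289, and none of them was a member.

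Liver was lower than duodenum for 4 members, while miR-27b was higher in liver, with a log2 difference of -0.20 ± 0.06 (duodenum minus liver, adjusted p = 0.00217), and 82.7 percent of all miRNAs passed the threshold. The lower values ranged from a difference of 0.68 ± 0.11 for miR-27a-3p to 1.49 ± 0.18 for miR-24-3p. Jejunum gave the same 4 members as higher than liver, by 0.81 ± 0.11 for miR-27a-3p to 1.30 ± 0.18 for miR-24-3p, against 84.8 percent of miRNAs called. miR-27b was not called there, with a log2 difference of -0.11 ± 0.06 (jejunum minus liver, adjusted p = 0.0974). This call depends on scaling, since miR-27b was called higher in liver than in jejunum under TMM scaling (-0.52) and under upper-quartile scaling (-0.66). The call also depends on the libraries fitted. Without the 3 mammary libraries under 2000000 reads the difference was unchanged and passed the threshold (limma, adjusted p = 0.0389).

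The mammary gland separated the members further. It was above liver for 5 of 6, with log2 differences (liver minus mammary gland) of -0.60 ± 0.11 for miR-27a-3p to -1.35 ± 0.16 for miR-27a-5p, and below liver for miR-27b, at 0.28 ± 0.06 (adjusted p = 6.15e-05), where 70.2 percent of miRNAs were called. Against duodenum, with 82.7 percent called, 3 members passed the threshold. The rare arm miR-27a-5p was higher in mammary gland (duodenum minus mammary gland -1.10 ± 0.16), whereas miR-23b-3p was higher in duodenum by 0.66 ± 0.14 and miR-24-3p by 0.50 ± 0.18. Against jejunum, with 81.3 percent called, miR-27a-5p was again higher in mammary gland (jejunum minus mammary gland -1.08 ± 0.16), and miR-23b-3p (0.44 ± 0.14) and miR-27b (0.17 ± 0.06) were higher in jejunum. The miR-27b difference did not pass under TMM scaling (adjusted p = 0.357) or upper-quartile scaling (adjusted p = 0.810). Without the 3 mammary libraries under 2000000 reads, miR-27a-5p alone kept a difference from jejunum past the threshold. Likewise without them, miR-24-3p no longer passed between duodenum and mammary gland (0.28, adjusted p = 0.132), and miR-27a-3p passed in the opposite direction, higher in mammary gland (-0.16, adjusted p = 0.0403). miR-23a, with a difference of -0.02 over all libraries (adjusted p = 0.846), then also passed as higher in mammary gland (-0.22, adjusted p = 0.0299). For these comparisons the share of all miRNAs called without the shallow libraries is not given here.

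The balance between the a and b clusters was read as a ratio within each library, which scaling of a library does not change. It is a ratio of reads and not of molecules, and how well the library preparation captured each miRNA was not tested. miR-27b exceeded miR-27a-3p in 90 of 90 libraries. The median ratio was 8.97 in rumen (7.06 to 12.1), 12.3 in duodenum (10.3 to 15.1), 11.1 in mammary gland (7.89 to 28.9), 12.04 in jejunum (10.03 to 13.6) and 22.4 in liver (18.03 to 27.01). Liver did not overlap rumen, duodenum or jejunum, and 7 of 10 pairs of tissues passed a permutation test on the log2 ratio. Relative to miR-27b, miR-27a-3p was lower in liver than in rumen by a log2 difference of 1.31 ± 0.07, than in duodenum by 0.88 ± 0.06 and than in jejunum by 0.92 ± 0.06 (permutation test, each adjusted p = 2.73e-05). Each of these tests reached the smallest unadjusted p that 100000 permutations can give, 1e-05. Duodenum, jejunum and mammary gland did not pass the threshold against one another.

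For the miR-23 forms the balance was closer to even and its order over tissues was another. miR-23b-3p exceeded miR-23a in all 18 libraries of duodenum, jejunum and liver and in 17 of 18 of rumen and of mammary gland. Its median ratio to miR-23a was 1.68 in rumen (0.932 to 2.47), 2.49 in duodenum (1.65 to 2.88), 1.45 in mammary gland (0.867 to 2.50), 2.01 in jejunum (1.42 to 2.34) and 2.23 in liver (1.82 to 2.83). Of 10 pairs of tissues 8 passed the permutation test, all but rumen against mammary gland (adjusted p = 0.201) and duodenum against liver (adjusted p = 0.190). Between duodenum and jejunum the ratio passed, with miR-23a relative to miR-23b-3p lower in duodenum (log2 difference, duodenum minus jejunum, -0.26 ± 0.07, permutation test, adjusted p = 0.000740). By its level neither form passed in the fit over all 90 libraries. Fitted on these tissues alone, as the ratio was tested, the level of miR-23b-3p did pass (0.22, limma, adjusted p = 0.0395).

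**Figure D2:**
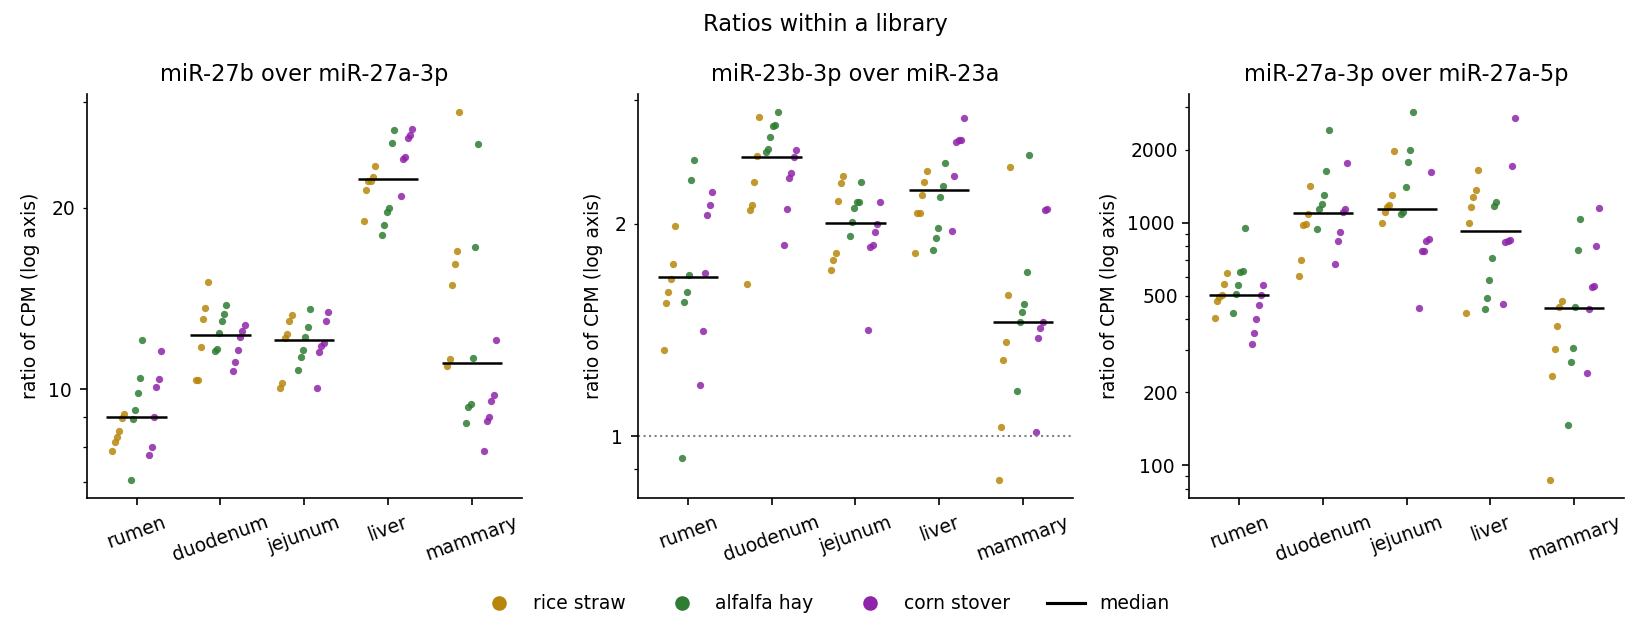
Ratios of CPM within a library (log axis) for miR-27b over miR-27a-3p, miR-23b-3p over miR-23a and miR-27a-3p over miR-27a-5p by tissue, 1 point per library coloured by diet, with a bar at the median of 18 and a dotted line at equal levels in the middle panel; points of a diet are spread sideways in order of value. Liver has the highest miR-27b excess (median 22.4), while miR-23b-3p over miR-23a peaks in duodenum (2.49).

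The arms of miR-27a were far from even, and miR-27a-3p was the higher arm in 90 of 90 libraries. The median ratio of the 3p to the 5p arm was 504 in rumen (315 to 954), 1096 in duodenum (604 to 2424), 445 in mammary gland (86.9 to 1156), 1137 in jejunum (445 to 2870.2) and 928 in liver (423 to 2708.5). The highest liver ratio comes from 2 reads of the 5p arm, and its 95 percent Poisson counting interval runs from 749.8 to 22365. On the log2(CPM + 1) scale 8 of 10 pairs of tissues passed the permutation test. Without a pseudocount 6 pairs passed, which set rumen and mammary gland, with relatively more 5p arm, below duodenum, jejunum and liver. In that form the log2 ratio in rumen differed by -1.12 from duodenum, -1.23 from jejunum and -0.87 from liver (permutation test, adjusted p = 2.73e-05, 2.73e-05 and 0.000240), and rumen and mammary gland differed by 0.34 (adjusted p = 0.210). Rumen against liver was called without a pseudocount and not with 1 CPM added (a difference of -0.23, adjusted p = 0.118). With 5 CPM added, rumen had the higher log2 ratio in all 3 pairs, by 0.25 over duodenum (permutation test, adjusted p = 0.0135), 0.13 over jejunum (adjusted p = 0.219) and 0.82 over liver. That constant is above the median of miR-27a-5p in duodenum, jejunum and liver. Rumen had the lower mean log2 ratio in each of these pairs without a pseudocount and with 1 CPM added (-0.65, -0.77 and -0.23 in the same order). The size of these differences thus depends on a choice that matters for a miRNA at a few CPM, and only 5 CPM reversed their direction.

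Levels of some members also moved together among libraries of 1 tissue. Within a tissue only pairs of members were correlated, so how often other pairs of miRNAs correlate as strongly was not tested. Within the a cluster, log2(CPM + 1) of miR-23a and miR-27a-3p correlated in 5 of 5 tissues, with Pearson's r of 0.74 in rumen, 0.78 in duodenum, 0.97 in mammary gland, 0.76 in jejunum and 0.76 in liver (n = 18 each, permutation test, adjusted p between 0.000140 and 0.00447 over 35 correlations). Spearman's rho was 0.74, 0.82, 0.93, 0.61 and 0.39 in the same order, and only liver missed the threshold (permutation test, adjusted p = 0.162). In liver the relation rests on 2 libraries, since r was 0.25 without the 2 farthest from the median of miR-23a. In the other 4 tissues r stayed between 0.64 and 0.95 without the 2 farthest. With the mean of each diet subtracted, r was between 0.75 and 0.96 in all 5 tissues.

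In the b cluster, miR-23b-3p and miR-27b correlated in jejunum (r = 0.66, adjusted p = 0.00791), liver (r = 0.74, adjusted p = 0.00188) and mammary gland (r = 0.71, adjusted p = 0.00398), but in rumen r was -0.04 and in duodenum -0.11 (permutation tests, n = 18 each, adjusted p = 0.864 and 0.699). Spearman's rho was 0.38, 0.71 and 0.52 in jejunum, liver and mammary gland, and -0.06 and 0.02 in rumen and duodenum (permutation test, adjusted p = 0.162, 0.00626, 0.0808, 0.849 and 0.934). Without the 2 farthest libraries r was 0.50 in mammary gland, 0.49 in jejunum and 0.58 in liver, and only liver still passed the threshold. With upper-quartile scaling r was -0.02 in mammary gland. Whether the correlations of the 2 clusters differ from each other was not tested.

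Between the clusters, miR-23a and miR-23b-3p correlated in jejunum (r = 0.85), liver (r = 0.82) and mammary gland (r = 0.90, permutation test, adjusted p = 0.000140 in each), with rho of 0.74, 0.69 and 0.81, and r without the 2 farthest of 0.74, 0.65 and 0.79. In rumen and duodenum r was 0.40 and 0.45 (permutation test, adjusted p = 0.142 and 0.0982). Duodenum did pass with upper-quartile scaling (r = 0.64, permutation test, adjusted p = 0.0103) and with the mean of each diet subtracted (r = 0.59, adjusted p = 0.0232). miR-27a-3p and miR-27b correlated in rumen (r = 0.59), duodenum (0.67), jejunum (0.56) and mammary gland (0.87), with rho of 0.54, 0.60, 0.45 and 0.84, of which the second and the last passed, and r did not pass in liver (r = 0.34, permutation test, adjusted p = 0.209). In jejunum r fell to 0.36 without the 2 farthest libraries, and the relation there rests on them. It did not pass in jejunum with diet means subtracted either (r = 0.51, permutation test, adjusted p = 0.0516). With upper-quartile scaling r in mammary gland was -0.08 and that in duodenum no longer passed (r = 0.43, permutation test, adjusted p = 0.126). Reads shared between near-identical members would move with both, and their part in these correlations was not tested.

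Of 5 tissues, the correlation of the arms of miR-27a passed only in liver (r = 0.68, permutation test, adjusted p = 0.00447), where rho was 0.42 and r without the 2 farthest libraries was 0.36, and this relation too rests on them. miR-24-3p correlated with miR-27b in liver (r = 0.73, rho = 0.83, permutation test, adjusted p = 0.00213) and more loosely in jejunum (r = 0.55, adjusted p = 0.0328), and with miR-27a-3p in rumen (r = 0.53, permutation test, adjusted p = 0.0466). The latter pair of relations did not pass without the 2 farthest libraries (r = 0.36 and 0.41). In mammary gland, where rice straw sample 3 had the extreme miR-24-3p value, leaving out the 2 farthest libraries raised r with miR-27a-3p from 0.43 to 0.80 and with miR-27b from 0.14 to 0.65.

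**Figure D3:**
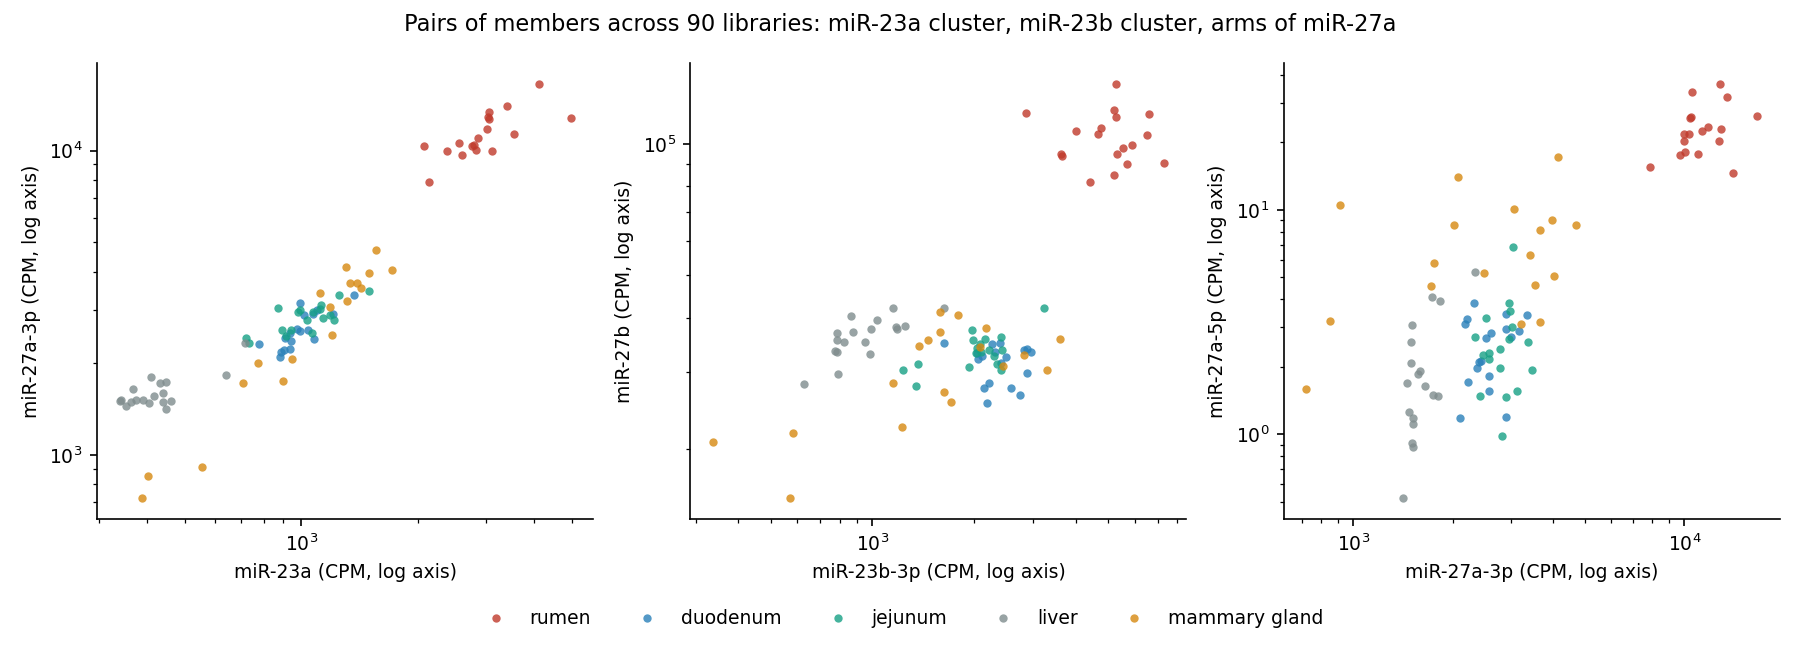
CPM of pairs of members on log axes in 90 libraries coloured by tissue: miR-23a against miR-27a-3p, miR-23b-3p against miR-27b, and miR-27a-3p against miR-27a-5p. In the left panel r within tissues ran from 0.74 to 0.97, but that of liver (0.76) was 0.25 without the 2 farthest libraries. In the middle panel rumen and duodenum show no slope (r of -0.04 and -0.11).

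Diet was compared within the 18 libraries of each tissue. In rumen, duodenum, liver and mammary gland, no member passed the F test over the 3 diets by limma. Of all miRNAs 1.49 percent passed it in rumen, 0 percent in duodenum, 0 percent in liver and 3.72 percent in mammary gland. At an unadjusted p under 0.05 the members numbered 1 in rumen (miR-27b), 0 in duodenum, 0 in liver and 4 in mammary gland, and all miRNAs numbered 69, 36, 17 and 101. In jejunum 23.8 percent of miRNAs passed and 2 members did, miR-24-3p (adjusted p = 0.000955) and miR-23b-3p (adjusted p = 0.0434). Under TMM or upper-quartile scaling miR-24-3p and miR-27a-5p passed there and miR-23b-3p did not, and with the replicate number as a block miR-24-3p alone passed (miR-23b-3p, limma, adjusted p = 0.0679). The share of all miRNAs that passed in jejunum in these settings is not given here.

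The jejunal difference set corn stover apart. miR-24-3p ranged from 704 to 1368 CPM on corn stover (median 914), from 1453 to 2279 on alfalfa hay (median 1721) and from 1269.8 to 1925 on rice straw (median 1669.8). All 6 corn stover libraries were below all 6 alfalfa hay libraries, and 1 of them, at 1368 CPM, was above the lowest rice straw library. The share of all miRNAs without overlap between these diets was not counted. The log2 difference was 0.91 ± 0.17 for alfalfa hay over corn stover (limma, adjusted p = 0.000645) and -0.78 ± 0.17 for corn stover relative to rice straw (adjusted p = 0.00213). For miR-23b-3p the corn stover libraries ranged from 1235 to 2291 CPM (median 1677), against 1971 to 3219 on alfalfa hay (median 2367) and 1927 to 2419 on rice straw (median 2099). Corn stover samples 2, 4 and 6 lay between 1235 and 1365 CPM, below all libraries of the other diets, and the same 3 had the lowest miR-24-3p. The difference passed against alfalfa hay, 0.51 ± 0.15 (adjusted p = 0.0189), but not against rice straw (-0.35 ± 0.15, adjusted p = 0.0850).

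The rare arm miR-27a-5p went the other way, with a mean of 3.62 ± 1.77 CPM on corn stover and 1.90 ± 0.58 on alfalfa hay (SD, n = 6 each). The log2 difference, alfalfa hay minus corn stover, was -0.62 ± 0.22 (limma, adjusted p = 0.0456), and with 0.1 CPM added in place of 1 the difference did not pass (adjusted p = 0.0534). miR-27a-3p and miR-27b, with means of 2707 ± 316 and 32143 ± 2879 CPM on corn stover and 2929 ± 340.4 and 35116 ± 4408 on alfalfa hay, did not pass. For alfalfa hay against corn stover 22 percent of miRNAs passed, for corn stover against rice straw 28.6 percent, and for alfalfa hay against rice straw 0 percent, where no member and 18 of 336 miRNAs had an unadjusted p under 0.05. Under TMM scaling the miR-23b-3p difference from alfalfa hay was 0.35 (adjusted p = 0.0942), whereas miR-24-3p passed under each alternative tried.

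Marker miRNAs of other cell types were compared between diets in the same jejunal libraries, without a test. The summed endothelial markers miR-126-3p and miR-126-5p, both listed, ranged from 7999.8 to 17708 CPM on corn stover, 18498 to 28030.3 on alfalfa hay and 19516 to 29441 on rice straw, without overlap between corn stover and either other diet. The 6 leukocyte markers, all listed, summed to 19730.3 to 32062 CPM on corn stover, 23874 to 37149.6 on alfalfa hay and 24668 to 35587 on rice straw. The smooth muscle pair miR-143 and miR-145 summed to 184453 to 296908, 147053 to 246794 and 151920 to 237701 CPM in the same order. The leukocyte and smooth muscle ranges overlapped between diets. The part of these markers in the differences of miR-24-3p and miR-23b-3p was not tested.

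In the mammary gland 4 members were higher on corn stover than on rice straw, although none passed the F test over the 3 diets, where miR-27a-3p came closest (limma, adjusted p = 0.0550). That F test depends on the setting. miR-27a-3p passed it under TMM scaling (adjusted p = 0.0489), with 5 CPM added (adjusted p = 0.0461), without the libraries under 2000000 reads (adjusted p = 0.00947, with miR-27b at 0.0298) and with the replicate number as a block (adjusted p = 0.0212, with miR-23b-3p at 0.0362). The miRNAs that passed it numbered 12 of 323, but 38 of 327 without those libraries, 55 of 323 with the block and 0 of 323 with 0.1 CPM added. Within a tissue that block joins different cows under the same number, since the diets were fed to different cows. miR-27a-3p ranged from 3415 to 4709 CPM on corn stover (median 4008) and from 721 to 2485 on rice straw (median 1737), and miR-27b from 32928 to 41251 (median 37519.9) and from 15441 to 28308 (median 24046). Neither overlapped. The medians on alfalfa hay lay between them, at 3135 CPM for miR-27a-3p and 32659 for miR-27b. The log2 difference, corn stover over rice straw, was 1.44 ± 0.36 for miR-27a-3p (limma, adjusted p = 0.0135), 0.71 ± 0.21 for miR-27b (adjusted p = 0.02502), 0.99 ± 0.34 for miR-23a (adjusted p = 0.0394) and 1.17 ± 0.43 for miR-23b-3p (adjusted p = 0.0484). The means of miR-23a were 1422 ± 212 and 755 ± 281 CPM and those of miR-23b-3p 2256 ± 798 and 1105 ± 554 CPM (SD, n = 6 each). miR-24-3p and miR-27a-5p did not pass.

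These 4 of 6 members stand against 26.6 percent of 323 miRNAs that passed, or 25.1 percent counted as higher on corn stover, and the median log2 difference of all miRNAs was 0.63. The difference of miR-27b was close to that median. The 86 miRNAs called comprised 81 higher and 5 lower on corn stover, but 19 and 17 under TMM scaling and 10 and 31 under upper-quartile scaling. With TMM scaling only miR-27a-3p still passed (0.73, adjusted p = 0.0163) and miR-27b differed by 0.01 (adjusted p = 0.985). With upper-quartile scaling no member passed, the difference of miR-27a-3p was 0.51 (adjusted p = 0.0813), and that of miR-27b turned to -0.21 (adjusted p = 0.604). Without the libraries under 2000000 reads miR-27a-3p (1.01), miR-23a (0.68) and miR-27b (0.54) passed and miR-23b-3p did not (0.61, adjusted p = 0.136), nor did it with 0.1 CPM added (adjusted p = 0.0552). For this comparison the share of all miRNAs called in these settings is not given here. For alfalfa hay against corn stover or rice straw no member passed by limma, and 0 percent and 0 percent of miRNAs did, with 33 of 323 miRNAs at an unadjusted p under 0.05 in each comparison, 0 and 1 of them members.

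Markers were also compared between the mammary libraries on rice straw and corn stover, without a test. The smooth muscle pair summed to 130010 to 228169 CPM on rice straw and 70758 to 127289 on corn stover, without overlap. Endothelial markers summed to 10201 to 43585 CPM on rice straw and 29614 to 44086 on corn stover, and leukocyte markers to 885 to 9646 and 4009 to 9904 CPM. The 6 glandular epithelium markers, all listed, summed to 98189 to 257441 CPM on rice straw and 140234 to 189878 on corn stover. This sum is not particular to the gland, since its median was 106082 CPM in liver and 174421 CPM over all mammary libraries. The part of all these markers in the differences of the members was not tested.

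**Figure D4:**
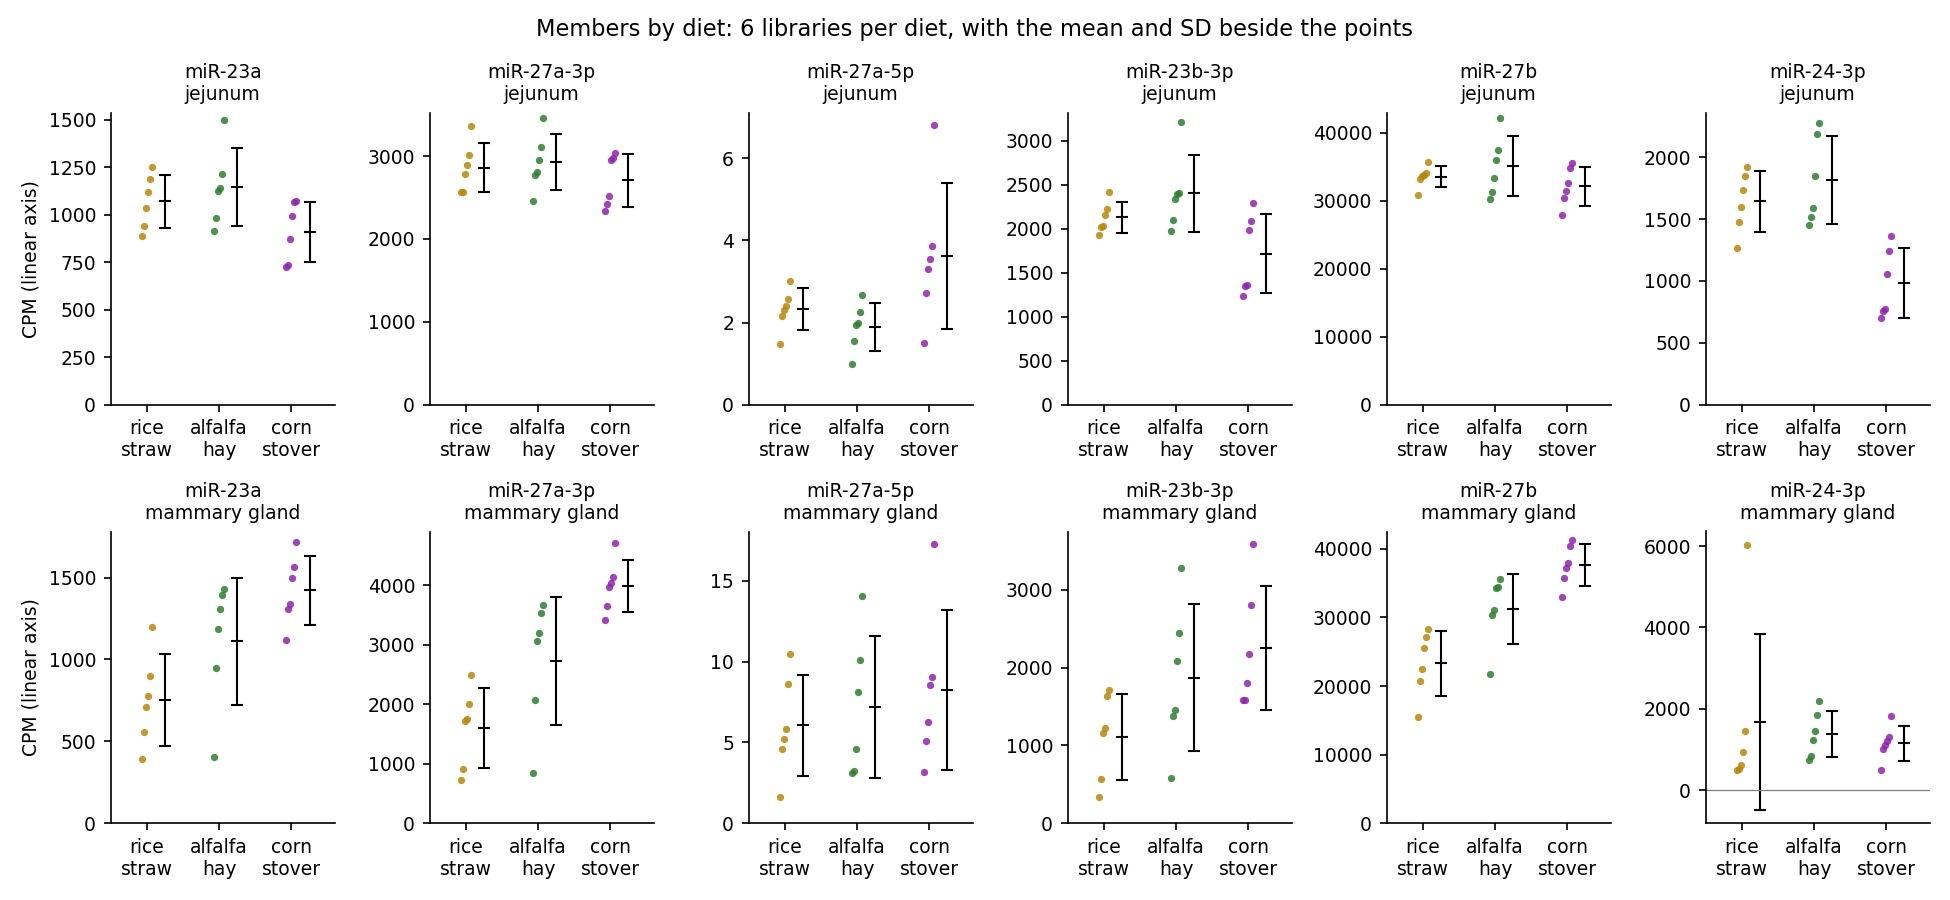
CPM (linear axis) of the 6 miRNAs by diet in jejunum (top) and mammary gland (bottom), 1 point per library, spread sideways in order of value, with the mean and SD of 6 libraries beside the points. On corn stover the jejunal miR-24-3p points (704 to 1368 CPM) lie below all alfalfa hay points, and in mammary gland the miR-27a-3p and miR-27b points on corn stover lie above all rice straw points. The share of all miRNAs that separate in this way was not counted.

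Whether the diet differences differed between tissues was tested with the interaction of tissue and diet over all 90 libraries. It passed for miR-27a-3p (limma, adjusted p = 7.54e-05), miR-27b (adjusted p = 0.000155), miR-23a (adjusted p = 0.0190) and miR-23b-3p (adjusted p = 0.0230), and not for miR-24-3p (adjusted p = 0.210) or miR-27a-5p (adjusted p = 0.356). Of all miRNAs 45.7 percent passed in this fit. Only 2 members passed without the libraries under 2000000 reads or with either scaling, and the share of all miRNAs in those settings is not given here. The balance between the clusters and between the arms had a smallest adjusted p of 0.146 over 45 comparisons of diets (exact permutation tests), 11 of which had an unadjusted p under 0.05. With 6 libraries against 6 the smallest p that the exact test can give is 0.00216, which adjusts to 0.0974 where 1 comparison of 45 reaches it, so no comparison could have passed on its own.

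The miRNAs outside the clusters whose levels followed the members most closely were taken from 189 miRNAs with a mean of at least 10 CPM in each tissue, by Pearson's r of log2(CPM + 1) over 90 libraries. These are descriptions, and the points share their library and tissue, and every member had its highest median in rumen. miR-147 was among the 3 closest to miR-27a-3p (r = 0.93), miR-23a (0.87), miR-23b-3p (0.86) and miR-27b (0.85), and its mean was 688 CPM in rumen and 11.7 to 48.5 CPM elsewhere. For miR-23a the closest was miR-21-5p (r = 0.91), an abundant miRNA of proliferating and inflamed tissue, followed by miR-147 and the epithelial miR-429 (0.86). miR-27b was closest to miR-149-5p (r = 0.89) and the hypoxia-responsive miR-210 (0.87). miR-210 was also the closest to miR-27a-5p (r = 0.86), ahead of miR-320a (0.82) and let-7b (0.81). miR-19a and miR-378c followed miR-27a-3p (both 0.86) and miR-23b-3p (0.87 and 0.85). miR-24-3p was closest to miR-34a, a target of p53 (r = 0.85), then to miR-21-5p (0.80) and miR-19a (0.77). Among the members themselves, r over the 90 libraries was highest for miR-23a with miR-27a-3p (0.95) and lowest for miR-27a-5p with miR-24-3p (0.56).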

How the data were processed

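Small RNA of 90 samples was sequenced from TruSeq Small RNA libraries. The authors removed low quality reads with CASAVA 1.8, and with sRNAbench clipped adaptors and mapped what exceeded 15 nt in length to bovine precursors of miRBase 22 (seed of 20, 2 mismatches, up to 10 mappings). The deposited values are CPM, which the authors computed over all reads mapped to annotated miRNAs. In every library 100 percent of the low values were whole multiples of 1 step (tolerance 0.1), which was taken as 1 read and gave the mapped reads of a library. At the extremes 3 reads were worth 0.192 and 3.20 CPM. Intervals cover counting error only.

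Groups and replicate numbers came from the labels, and no 2 libraries held identical values. miRNAs were tested with limma 3.58.1 in R 4.3.3 (lmFit, eBayes with trend) on log2(CPM + 1), with Benjamini-Hochberg adjustment over all miRNAs tested and a threshold of 0.05. A miRNA entered with CPM above 1 in more than 50 percent of the samples of a tissue. Tissues were compared over all 90 samples with 15 group means, and diets within the 18 samples of a tissue. Tissues come from the same cows and the main fit has no block. Ratios and correlations were tested by 2-sided permutation (100000 resamples, exact for 6 against 6), adjusted over 30 tissue ratios, 45 diet ratios and 35 correlations, with Python 3.11.15, numpy 2.4.6, pandas 2.3.3 and scipy 1.17.1. Figures were drawn with matplotlib 3.10.9. On simulated data with 60 miRNAs changed by 1 (log2), the fit recovered 60 between rumen and duodenum over 289 miRNAs, and over diets 45 in rumen, 57 in duodenum, 16 in mammary gland, 54 in jejunum and 41 in liver. Unchanged miRNAs were also called, 4 of them between rumen and duodenum. Over diets these numbered 1 in rumen, 0 in duodenum, 2 in mammary gland, 1 in jejunum and 1 in liver.

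The members, marker lists and tests were chosen with earlier results of these data known. Named miRNAs are the members, other products of their precursors (of those searched for, none was listed under the names used), and for each member the 3 with the highest correlation. miR-24, a row without an arm in its name, was named after its values were seen. The part of this rule on shared seeds was not applied, since no sequences were used here. Alternatives covered scaling, pseudocount, filter, shallow libraries, the samples in the fit and the replicate block.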

Additional observations from a re-analysis of the deposited data

Results flagged for a closer look

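Among 135 groups of 6 libraries (6 miRNAs and 3 ratios in 15 groups, on the log2 scale), 9 held a library that stood apart from the other 5, where chance gives about 1 in 20. In mammary gland, alfalfa hay sample 1, the shallowest library with 937556 reads, had miR-23a at 402 CPM (others 947 to 1429) and miR-27b at 21745 CPM (others 30293 to 35592). In rumen, rice straw sample 4 had miR-23a at 2080.1 CPM (others 2758 to 3105) and alfalfa hay sample 1 had miR-23b-3p at 2844 CPM (others 5182 to 6599). In duodenum, rice straw sample 4 had miR-27b at 28399 CPM (others 32622 to 35011). In liver, alfalfa hay sample 2 had miR-23a at 718 CPM (others 340.2 to 439), and rice straw sample 2 had miR-27a-5p at 4.08 CPM (others 0.911 to 1.64). In the same library the ratio of miR-27a-3p to miR-27a-5p, each as CPM + 1, was 339.8 (others 623 to 785). In jejunum, corn stover sample 4 had a ratio of miR-23a to miR-23b-3p of 0.706 (others 0.465 to 0.539).

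The diet differences of 4 members differed between tissues by limma's interaction test, miR-27a-3p with an adjusted p of 7.54e-05, miR-27b with 0.000155, miR-23a with 0.0190 and miR-23b-3p with 0.0230. Of all miRNAs 45.7 percent passed the same test. Fewer members passed with either scaling or without the libraries under 2000000 reads, and the share of all miRNAs in those settings is not given here. The largest called differences of these 4 members were those between corn stover and rice straw in mammary gland.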

How the results depend on the processing

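Of 818 alternative values for single members, ratios and correlations, 744 kept direction and call, 33 lost the call, 13 gained it and 28 changed sign. Of 231 alternative counts of calls, 213 stayed within 1.5 times. Unless a cause is given, the cause was not tested. The counts of members in this paragraph are given without the share of all miRNAs called in the same setting. Upper-quartile scaling moved the members called for corn stover against rice straw in mammary gland from 4 to 0, those called for the interaction from 4 to 2 and the tissues where miR-27a-3p correlated with miR-27b from 4 to 2. TMM scaling moved the first to 1, the interaction to 2, corn stover against rice straw in jejunum from 1 to 2 and the mammary F test from 0 to 1. The mammary F test also gave 1 with 5 CPM added and 2 without the libraries under 2000000 reads. Without those libraries the interaction fell to 2 and jejunum against mammary gland from 3 to 1. Duodenum and jejunum alone gave 1 in place of 0. Subtracting diet means moved the tissues called from 1 to 2 for miR-24-3p with miR-27a-3p and from 2 to 1 for miR-24-3p with miR-27b. Leaving out the 2 farthest samples moved miR-23b-3p with miR-27b from 3 to 1 and the arms of miR-27a from 1 to 0.

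Signs changed for 7 values called in either form. Under upper-quartile scaling, miR-27b for corn stover against rice straw in mammary gland became -0.21, and the mammary r became -0.023 for miR-23b-3p with miR-27b and -0.083 for miR-27a-3p with miR-27b. Without the shallow libraries, miR-27a-3p in duodenum minus mammary gland became -0.16. With 5 CPM added, the arm ratio became 0.25 for rumen minus duodenum, 0.13 minus jejunum and 0.82 minus liver, since a constant near the level of miR-27a-5p flattens it. Another 21 values called in neither form changed sign. Under upper-quartile scaling these were -0.091 (miR-27a-5p, duodenum minus liver), -0.051 and -0.057 (miR-27a-3p and miR-27b, duodenum minus mammary gland), -0.084 (miR-27a-5p, jejunum minus liver) and -0.12 (miR-23a, jejunum minus mammary gland). Under TMM scaling they were 0.0081 (miR-27a-5p, duodenum minus jejunum) and -0.062 (miR-23a, jejunum minus mammary gland). Without the shallow libraries they were -0.018 (miR-27b, duodenum minus mammary gland), -0.17 and -0.031 (miR-23a and miR-27a-3p, jejunum minus mammary gland), and -0.18 and -0.14 (ratio of miR-27a-3p to miR-27b, duodenum and jejunum minus mammary gland). For r under upper-quartile scaling they were 0.35 and 0.29 (miR-23b-3p with miR-27b, rumen and duodenum), -0.28 and -0.35 (arms, jejunum and mammary gland) and -0.12 (miR-24-3p with miR-27a-3p, mammary gland). Without the 2 farthest samples r was 0.083 and 0.0014 (miR-23b-3p with miR-27b, rumen and duodenum), -0.10 (arms, mammary gland) and -0.18 (miR-24-3p with miR-27a-3p, liver).

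The labels do not say that a replicate number marks 1 cow, and across diets a number joins different cows, since each cow had 1 diet. Deviations of same-numbered samples correlated at a mean of 0.069 across tissues and 0.053 across diets, against -0.014 and -0.010 for other pairs, with 82 of 180 and 31 of 90 pairs over 0.1 and 54 and 22 samples closest to their own number. With the number as a replicate block, 98 of 98 single values kept their call, and the members called by the F test moved from 2 to 1 in jejunum (miR-23b-3p lost) and from 0 to 2 in mammary gland (miR-27a-3p and miR-23b-3p). Count tests (edgeR and DESeq2 on recovered reads) were planned and not run. The criterion set for them, at least 100 values of 20 reads or fewer in a library, was met by 6 of 90 libraries. Depth limits miR-27a-5p most, which rested on 2 to 235 reads per library.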

Other observations

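A further miRNA was listed in all 90 libraries as miR-24, with no arm in its name, and which arm or precursor it stands for is not given in the sources used here. It was named after its values were seen. Its median was 17.7 CPM in rumen, 7.49 in duodenum, 7.22 in mammary gland, 7.83 in jejunum and 8.29 in liver, on 2 to 160 reads per library. Rumen was higher than the other 4 tissues by 0.88 to 1.32 on the log2(CPM + 1) scale (limma, adjusted p at most 4.21e-10). In mammary gland its mean was 8.79 ± 1.39 CPM on corn stover and 3.98 ± 2.15 on rice straw (SD, n = 6 each), a log2 difference of 1.08 ± 0.35 (limma, adjusted p = 0.0298), against a median of 0.63 over all miRNAs. In jejunum, where miR-24-3p was lower on corn stover, miR-24 did not pass between corn stover and alfalfa hay (0.24 ± 0.17 for alfalfa hay over corn stover, limma, adjusted p = 0.290).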
